A study of Mus musculus with 18 samples.

Results

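Livers of mice given rapamycin were compared directly with livers of mice under caloric restriction, without the freely fed control as a reference. For each gene the log2 ratio of the rapamycin group mean to the caloric restriction group mean was taken after adding 1 to both means. A gene entered if its level, averaged over the 5 groups, reached 10 normalized counts, which 11201 of 12019 genes did. A positive ratio means a higher level under rapamycin.

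The study sequenced liver RNA of C57BL/6J mice after 8 weeks of intervention from 21 weeks of age. Its 18 libraries are 6 of freely fed controls and 3 for each intervention. The rapamycin mice received the drug in their chow at 42 mg/kg/day, and the restricted mice received 30% less food. Whole livers were flushed with PBS and minced, and poly(A) RNA was sequenced, so that hepatocytes and all other liver cells contribute. The other 2 interventions were metformin (37.5 mg/kg/day) and TM5614 (20 mg/kg/day), also in chow. The labels name no sex, no batch and no hour of collection or last meal. No group received both rapamycin and less food.

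Rapamycin binds the small protein FKBP12, and the pair blocks mTOR complex 1, a kinase that couples amino acid and insulin signals to protein and lipid synthesis. Caloric restriction lowers the supply of those nutrients and, where food is given as a daily meal, lengthens the daily fast. The liver answers fasting by burning fatty acids and making glucose and ketones. It also carries a circadian clock that follows meal times, and a large set of genes whose levels differ between the sexes because growth hormone is secreted in pulses in males and more evenly in females.

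The values are the authors' group means of normalized counts. The means carry enough digits that the whole reads of the 3 libraries behind a mean could be recovered for 8611 of the 11201 genes in both groups, all with group means up to 1000. These libraries are called A, B and C within each group, and could not be tied to the labelled replicates. The size factors of the 6 libraries lay between 0.986 and 1.11, and their total reads are not known. Where reads were recovered, limma was run on log2(normalized count + 1) over the 8611 genes. The labels do not say more than that the libraries are separate samples, and its p-values measure the spread between these libraries. For means above that range there is no value per library and no test, and a gene is described by its fold alone.

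Rapamycin library A and caloric restriction library B stood apart. In rapamycin library A 53 genes lay at least 4-fold above both other rapamycin libraries and 14 lay as far below. Inflammatory genes lead that list, with Cxcl2 at 323, 0 and 2 normalized counts in libraries A, B and C. In caloric restriction library B 19 genes lay 4-fold above both others and 8 as far below, led by the immediate early gene Fosb at 1.8, 1959.9 and 8.12. In the other 4 libraries 0 to 6 genes lay 4-fold above and 5 to 10 as far below, so the counts above, more than those below, set libraries A and B apart. Where reads were recovered, several results that rest on libraries A or B are given with and without them below.

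Of the 11201 genes, 409 were at least 2-fold higher under rapamycin (3.65%) and 422 at least 2-fold lower (3.77%). These shares are the background for every count of list members at 2-fold given below. The median log2 ratio over all genes was -0.01, and 78.9% of the genes lay within 1.5-fold of equality. A 4-fold difference was reached by 93 genes upward and 68 downward. At the threshold, Ttll12 and Slc35b1 lay just outside at log2 ratios of 0.9986 and 0.9992, and Serpinb9 and Grhpr just inside at 1.0003 and 1.0032. With limma on the recovered reads, 471 of 8611 genes were higher (5.47%) and 484 lower (5.62%) at an adjusted p under 0.05. Libraries of the 2 groups did not overlap for 17.3% of these genes with rapamycin higher and for 16.3% with rapamycin lower.

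Among the recovered genes, 280 were at least 2-fold higher, and limma called 171 of them (61.1%). Of 308 genes at least 2-fold lower it called 191 (62%). Leaving rapamycin library A out took 69 of the 280 higher genes below 2-fold, and with the genes that newly passed the count became 239. Leaving caloric restriction library B out took 69 of the 308 lower genes below 2-fold, and the count became 283. The limma counts were more sensitive to a left-out library, with 138 to 333 genes higher and 187 to 369 lower. They were lowest without rapamycin library B (138 and 187) and caloric restriction library C (218 and 212). Each of these fits has 2 libraries in one arm.

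**Figure D1:**
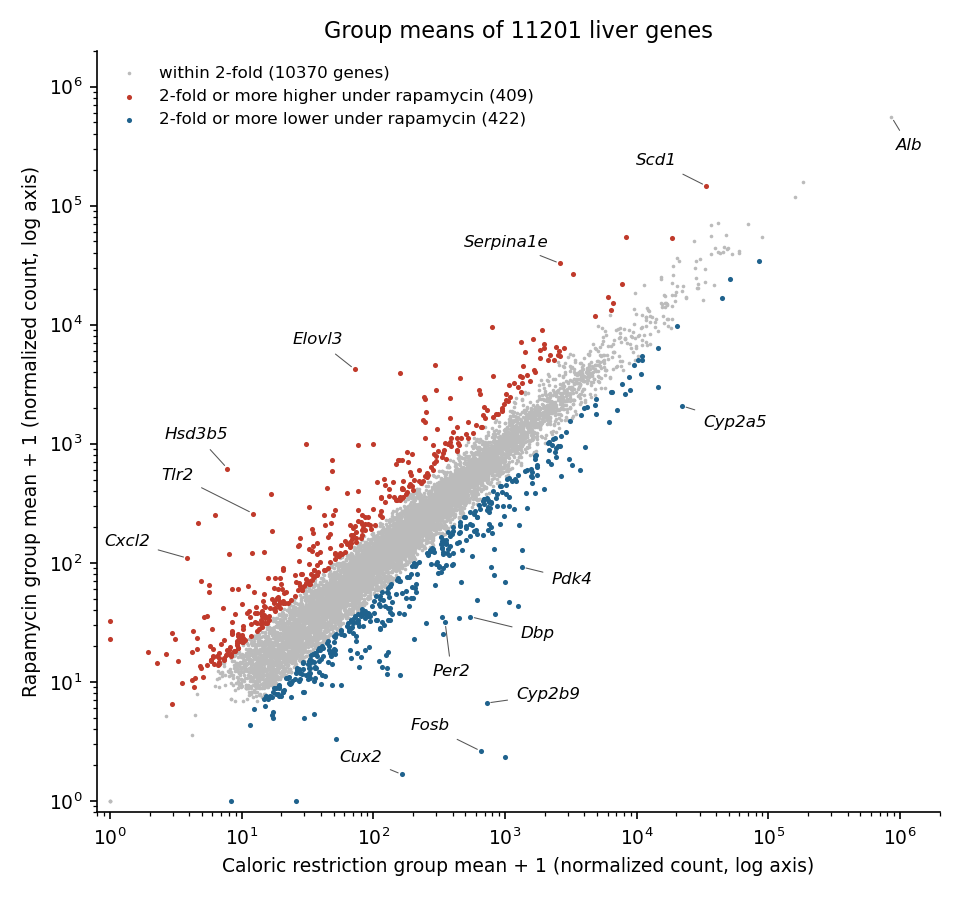
Group means plus 1 of normalized counts for 11201 genes, caloric restriction on the horizontal and rapamycin on the vertical log axis, each point a gene. The 409 genes in red are at least 2-fold higher under rapamycin and the 422 in blue at least 2-fold lower; Hsd3b5 (6.8 against 618) and Cux2 (164 against 0.667) lie far from the diagonal on either side.

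The means of the other 3 groups show which side of the comparison stood apart. Among the 409 higher genes, caloric restriction alone lay at least 2-fold outside the range of control, metformin and TM5614 for 137 (33.5%), and rapamycin alone for 35 (8.56%). Among the 422 lower genes the counts were 130 (30.8%) for caloric restriction alone and 10 (2.37%) for rapamycin alone. Over all 11201 genes the shares were 2.84% and 0.562%. The remaining genes, 232 of the higher and 278 of the lower, had neither group 2-fold outside that range, and both groups were outside for 5 and 4. These counts use group means and were not repeated without rapamycin library A. Cxcl2, Tlr2 and Saa3 are among the 35, and without that library their log2 ratios were -0.95, 0.23 and 0.53.

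**Figure D2:**
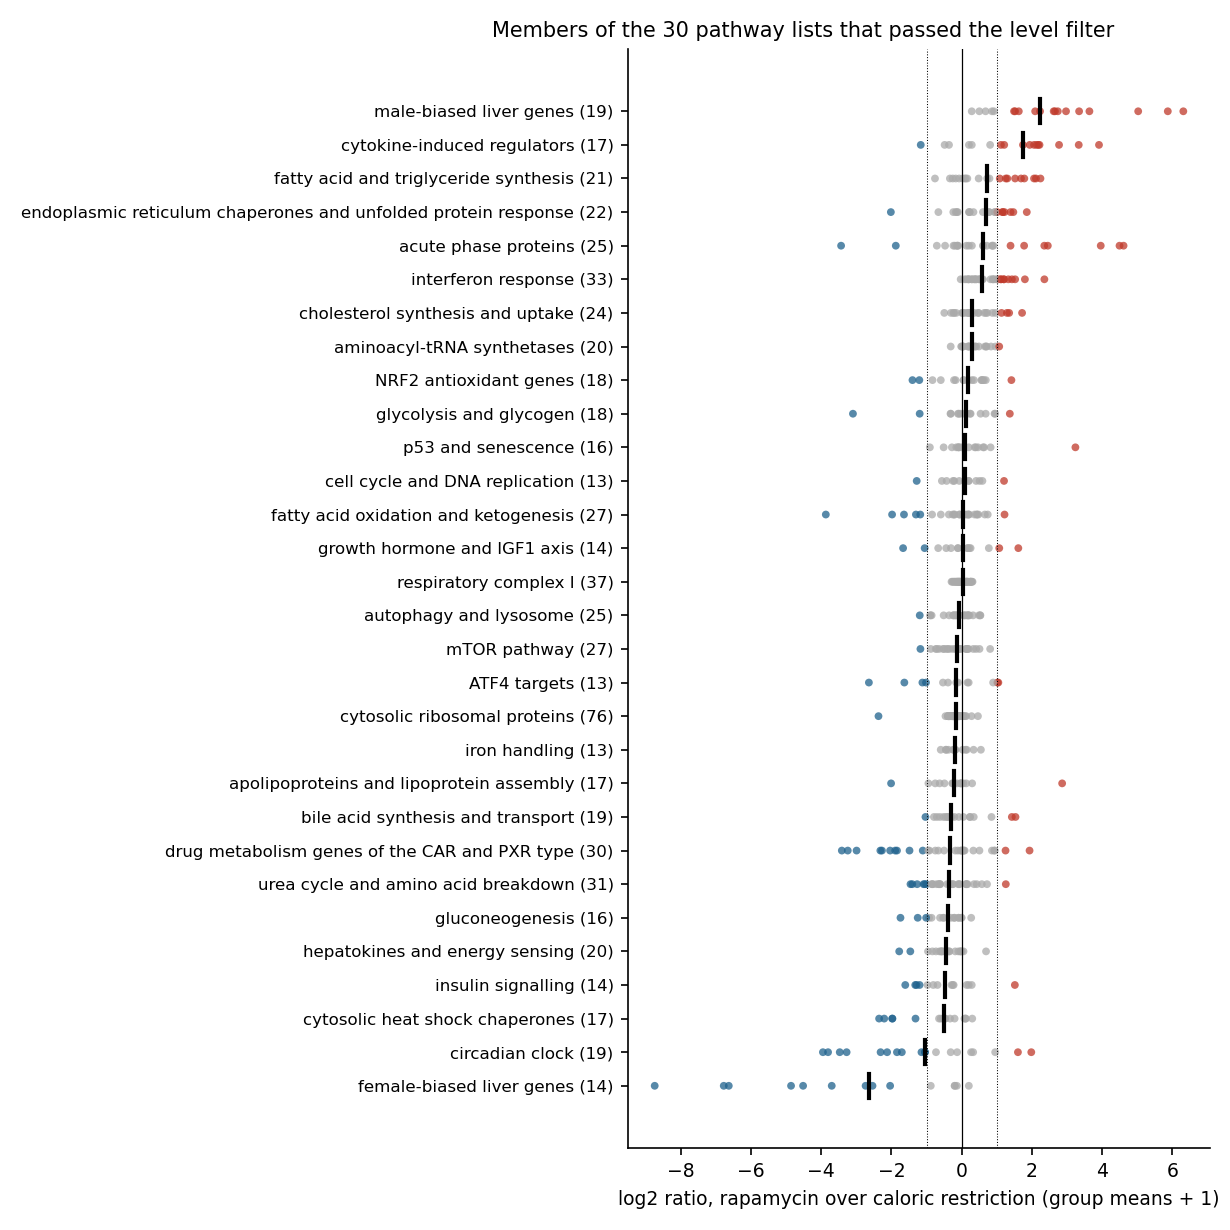
Log2 ratio of rapamycin over caloric restriction for each member of the 30 pathway lists that passed the level filter (number in brackets), one point a gene, red at 1 or above and blue at -1 or below, with the list median as a black bar. Male-biased liver genes have the highest median (2.23) and female-biased liver genes the lowest (-2.64), and the clock members run from Dbp at -3.95 to Arntl at 1.98.

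Circadian clock genes differed between the 2 groups in both directions. The clock is a loop in which BMAL1 (Arntl) and CLOCK drive Per, Cry, Nr1d1 and Dbp through E-boxes, and the products of Per, Cry and Nr1d1 repress that loop in turn. Of 19 members, 11 were at least 2-fold lower under rapamycin and 2 at least 2-fold higher, with a median log2 ratio of -1.04. Limma called 7 lower and 3 higher of the 13 with recovered reads, against 5.62% and 5.47% of all 8611 genes. Without rapamycin library A the median of those 13 went from -1.14 to -1.94.

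Dbp, a transcription factor driven by the clock, had 33.7, 33.1 and 36 normalized counts in the rapamycin libraries and 581, 661 and 389 under caloric restriction. The groups lie far apart, with the 3 rapamycin libraries almost equal. The limma difference was -3.92 ± 0.20 (SE, log2), adjusted p = 7.27e-05, and at most 0.000834 with any 1 library left out. The gene lies on chromosome 7 from 45705100 to 45710203 (GRCm38.p6).

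Per2, a repressor of the loop, stood at 32.7, 28.2 and 31 under rapamycin and at 391, 389 and 269 under caloric restriction. Its limma difference was -3.45 ± 0.18, adjusted p = 7.27e-05. Per3 had 11.5, 11.7 and 13 against 191, 94 and 91.3 (-3.19 ± 0.31 in limma, adjusted p = 0.000922). Cry2 followed with 153, 97.2 and 87.1 against 392, 754 and 535 (-2.30 ± 0.27 in limma, adjusted p = 0.002). Ciart, listed as Gm129 and coding for a further repressor, had 14.4, 2.92 and 14 against 236, 125 and 116 (-3.97 ± 0.53 in limma, adjusted p = 0.0039). None of these 4 genes overlapped between the groups, which held with rapamycin lower for 16.3% of all 8611 genes.

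Per1 and Cry1 were lower by less, at 232, 108 and 125 against 497, 519 and 504, and at 127, 127 and 117 against 195, 311 and 319 (limma adjusted p = 0.00438 and 0.00957). Arntl and Nr1d1 were higher under rapamycin. Arntl had 117, 134 and 159 normalized counts against 28.7, 20.1 and 52.7 (2.08 ± 0.32 in limma, adjusted p = 0.00663). Nr1d1, which codes for the repressor REV-ERB alpha and is driven through E-boxes like Per2 and Dbp, differed in the direction opposite to theirs, at 599, 589 and 544 against 159.9, 287 and 122 (1.70 ± 0.26 in limma, adjusted p = 0.00663). Wee1 and Usp2, which lie outside the list and which the clock is known to drive, were also lower under rapamycin. Both were named because their ratios were among the lowest, so their direction was set by that choice. Whether other such genes went the same way was not tested. Wee1, a kinase of the cell cycle, had 31.7, 20.4 and 20.0 against 259, 459.5 and 296 (-3.75 ± 0.26 in limma, adjusted p = 0.000273), and the mean of Usp2, a deubiquitinase, was 67.9 against 1004.

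The Dbp means of the other groups were 177 (control), 629.7 (metformin) and 644 (TM5614), so that rapamycin had the lowest mean of the 5 groups and caloric restriction the third highest. For Per2 they were 61.5, 102 and 139, and caloric restriction was highest at 349.7. The hour of collection is not in the labels, and a treatment cannot be told apart from a shift in collection or feeding time for these genes.

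The E-box is shown for 4 clock members because it is the element through which the loop is known to act. CACGTG, which reads the same on both strands, was found in the 250 bases before the start of 5 of 15 clock members with a RefSeq promoter (33.3%), against 6.86% of 27025 genes. The stretches lie at chr3:95882230-95882309 (Ciart, minus strand), chr11:69098746-69098825 (Per1, plus strand), chr15:81802509-81802588 (Tef, plus strand) and chr10:85185072-85185151 (Cry1, minus strand) of GRCm38.p6. The sequences are from RefSeq, and each runs 5' to 3' on the strand of its gene, with the E-box in capitals.
Ciart: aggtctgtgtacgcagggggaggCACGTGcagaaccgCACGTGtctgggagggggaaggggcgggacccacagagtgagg
Per1: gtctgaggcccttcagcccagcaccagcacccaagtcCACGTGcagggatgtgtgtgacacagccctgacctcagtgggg
Tef: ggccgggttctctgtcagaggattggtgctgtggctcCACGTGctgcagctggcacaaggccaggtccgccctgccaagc
Cry1: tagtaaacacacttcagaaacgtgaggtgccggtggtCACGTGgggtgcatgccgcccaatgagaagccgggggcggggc
The log2 ratios of these genes were -3.80, -1.70, -2.12 and -1.14. Ciart holds 3 copies in its 250 bases, 2 of them in the stretch printed. Bhlhe41, the fifth with a match, had a log2 ratio of -1.04 and libraries that overlapped (20.2, 6.8 and 3 against 2.69, 44.1 and 18.3).

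**Figure D3:**
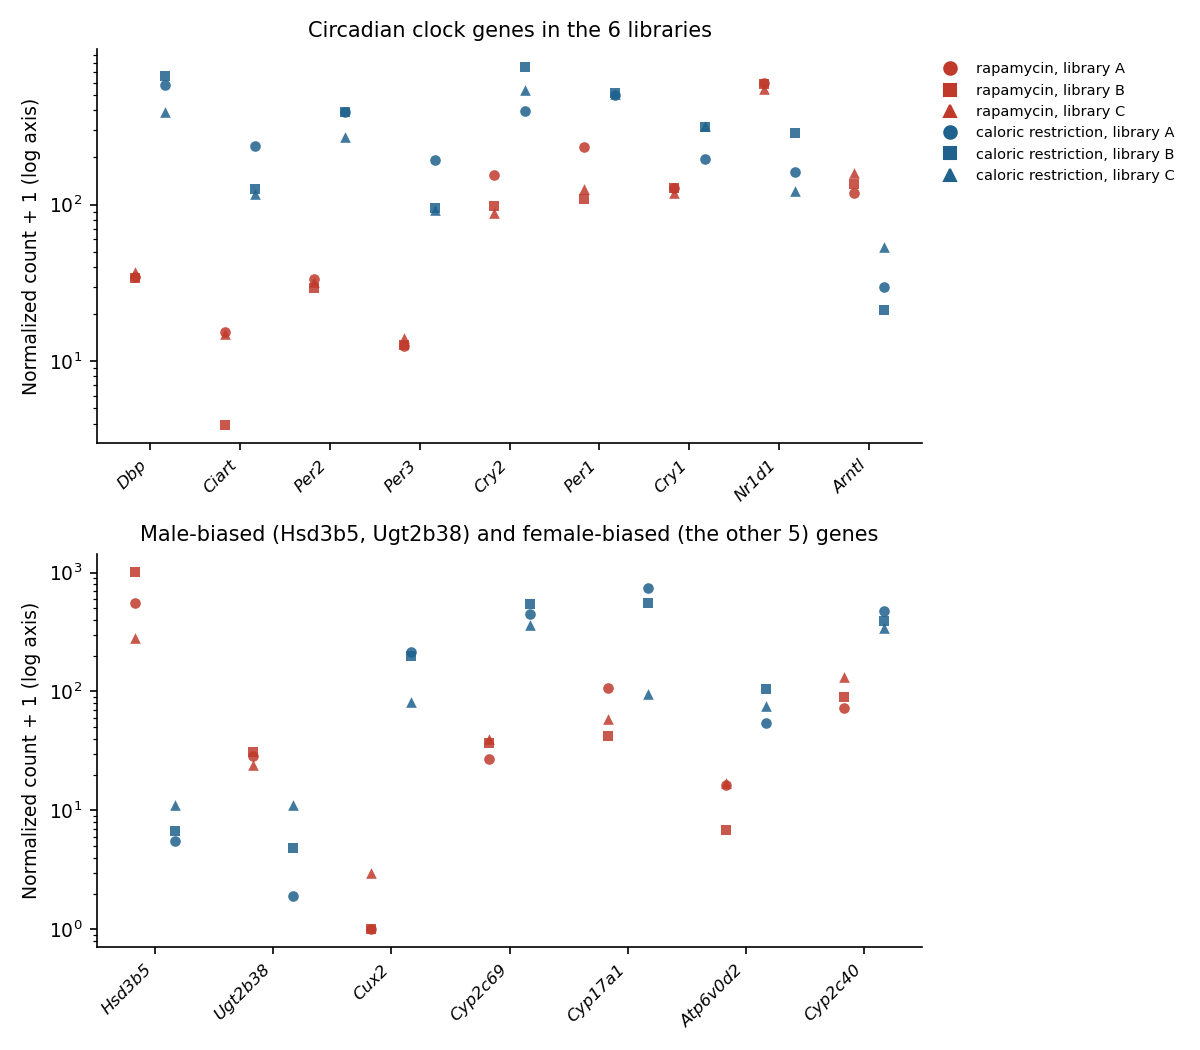
Normalized counts plus 1 (log axis) of clock genes, above, and of sex-biased genes, below, in each of the 3 rapamycin (red) and 3 caloric restriction (blue) libraries, each symbol a library. Dbp sits between 33.1 and 36 in the red libraries and between 389 and 661 in the blue ones, and Arntl, Nr1d1, Hsd3b5 and Ugt2b38 are the genes with red above blue.

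Sex-biased genes differed in both directions. Of 19 male-biased genes, 14 were at least 2-fold higher under rapamycin and none at least 2-fold lower, all 19 ratios were above 0, and the median was 2.23. Of 14 female-biased genes that passed the level filter, out of 24 listed, 9 were at least 2-fold lower and none at least 2-fold higher, with a median of -2.64. Limma called 2 of the 3 male-biased and 4 of the 9 female-biased genes with recovered reads in these directions. Over all 8611 genes it called 5.47% higher and 5.62% lower. The list was drawn up with these results known.

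Hsd3b5, a steroid dehydrogenase of male liver on chromosome 3 (98618636 to 98645534), had 558, 1018 and 279 normalized counts under rapamycin and 4.49, 5.76 and 10.1 under caloric restriction. The lowest rapamycin library thus lay far above the highest restricted one. The limma difference was 6.19 ± 0.45, adjusted p = 0.00034 and at most 0.00242 with a library left out. Elovl3, a fatty acid elongase, had means of 4219 and 71.2, with 64.7, 40.3 and 109 in the restricted libraries. For Selenbp2, a selenium-binding protein, the means were 1001 and 29.7. Serpina1e and Mup21 had log2 ratios of 3.64 and 3.34, but both belong to families of near-identical copies among which reads may have been split, and their values are uncertain.

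On the female-biased side, Cux2, a transcription factor of female liver, had 0, 0 and 2 normalized counts under rapamycin against 216, 197 and 80.1. Its rapamycin level rests on 2 reads, and the ratio of means was 246 with a 95% counting interval of 68.1 to 2031 (exact Poisson). Limma gave Cux2 an adjusted p of 0.000508. Cyp2c69, a cytochrome P450 with close relatives, had 26, 36 and 39 against 444, 544 and 359 (-3.70 ± 0.21 in limma, adjusted p = 8.25e-05). Cyp17a1 went the same way, at 107, 40.8 and 58 against 735, 557 and 93.3, but missed the threshold (limma adjusted p = 0.0616).

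The rapamycin means of Hsd3b5 (618) and Cux2 (0.667) lay far nearer to those of the other fed groups than to caloric restriction (6.8 and 164). Hsd3b5 had means of 968, 983 and 481 in control, metformin and TM5614, and Cux2 1, 3.67 and 0. Y-linked transcripts were read in all 6 libraries. Ddx3y, an RNA helicase gene of the Y chromosome, had 830.0, 834 and 976 normalized counts under rapamycin and 792, 806 and 677 under caloric restriction (limma adjusted p = 0.236), and Uty 81.7 to 135 and 73.9 to 109.6. In the growth hormone axis 2 of 14 members were 2-fold higher and 2 lower, with a median of 0.03. Cish, an inhibitor that growth hormone induces through STAT5, had 463, 369 and 210.2 against 128, 158 and 51.7 (1.69 ± 0.42 in limma, adjusted p = 0.0368, but up to 0.12 with a library left out). Igf1 means were 4096 and 5056, a log2 ratio of -0.30.

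**Figure D4:**
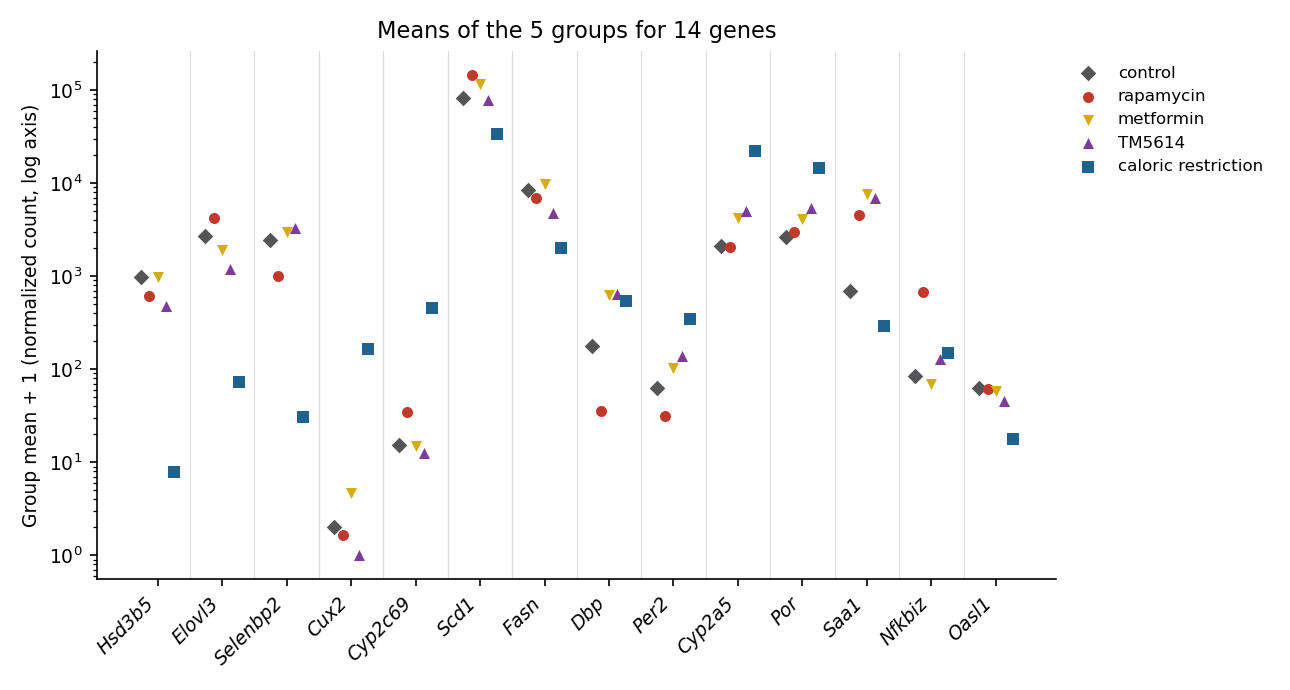
Group means plus 1 of normalized counts (log axis) of 14 genes in control, rapamycin, metformin, TM5614 and caloric restriction, each symbol a group mean without an error. For Hsd3b5, Cux2, Por and Cyp2a5 caloric restriction (6.8, 164, 14471 and 22108) stands away from the other 4 groups, while for Dbp rapamycin (34.2) has the lowest mean.

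Most genes of fatty acid synthesis were higher under rapamycin. Of 21 members 9 were at least 2-fold higher and none at least 2-fold lower. Ratios were above 0 for 16 and below 0 for 5, with a median log2 ratio of 0.73. The group means were 146272 and 33750.1 for Scd1, the desaturase that makes oleic acid, and 9081 and 1916 for the elongase Elovl5. They were 6858 and 1989.7 for Fasn (fatty acid synthase), 4454 and 1379 for Acly (ATP citrate lyase) and 5903.98 and 1415 for Me1 (malic enzyme). Srebf1, the transcription factor that drives many of these enzymes, stayed at 1448 and 1294, a log2 ratio of 0.16. Reads were recovered for 2 members only, with a median log2 ratio of -0.08, and limma called neither. The ratios of the genes named here carry no replicate error.

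For Scd1 and Me1 the 2 interventions lay on opposite sides of the control. The authors' deposited table gives Scd1 log2 fold changes of 0.84 for rapamycin (adjusted p = 0.0433) and -1.28 for caloric restriction (adjusted p = 3.85e-06). For Me1 the authors' deposited table gives 0.69 (adjusted p = 0.0421) and -1.37 (adjusted p = 6.21e-10). For Fasn the authors' deposited table gives an adjusted p of 1.26e-16 for caloric restriction and of 0.685 for rapamycin. The difference between rapamycin and caloric restriction is not tested in that table.

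In cholesterol synthesis 4 of 24 members were at least 2-fold higher and none lower, with a median of 0.30. Dhcr7, the last enzyme of the pathway, had 1130.1, 854 and 959 against 377, 555 and 405 (1.15 ± 0.16 in limma, adjusted p = 0.0047). Hmgcs1, the synthase at its start, had means of 6076 and 1843. Limma called 3 of the 5 members with recovered reads higher, against 5.47% of all 8611 genes. Among 19 bile acid genes 7 had ratios above 0 and 12 below, with a median of -0.29. Past 2-fold, Cyp8b1 and Hsd3b7, both enzymes of synthesis, were higher (log2 ratios of 1.43 and 1.53) and the sterol exporter Abcg5 lower (-1.03). Cyp7a1, the rate-limiting enzyme, had means of 848 and 1216.

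Fatty acid oxidation did not go one way. Of 27 members 5 were at least 2-fold lower under rapamycin and 1 higher, with a median of 0.03. Pdk4, the kinase that shuts pyruvate dehydrogenase during fasting, had 68.3, 102 and 103 normalized counts in the rapamycin libraries and a mean of 1344 under caloric restriction. Cyp4a10, a PPAR alpha target, had means of 2601 and 8118. Cpt1a, which brings fatty acids into mitochondria, reached 3388 and 5109.6, a log2 ratio of -0.59, and the peroxisomal thiolase gene Acaa1b was higher under rapamycin (15279 and 6554).

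Gluconeogenesis had 3 of 16 members at least 2-fold lower, none higher and a median of -0.40. Ppargc1a, a coactivator of the fasting response, had 170.2, 93.3 and 96.1 against 242, 424 and 544 (-1.72 ± 0.32 in limma, adjusted p = 0.0132, and up to 0.0592 with a library left out). Pck1, the enzyme most used as its marker, had means of 22789 and 32829. Ppp1r3g, a glycogen-targeting subunit of a phosphatase, had 157, 50.5 and 64 against 329, 878 and 1134 (-3.09 ± 0.51 in limma, adjusted p = 0.00869). Its means in the other groups ran from 29.9 (metformin) to 381 (control).

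Drug metabolism genes of the kind that the nuclear receptors CAR and PXR control were lower under rapamycin for 19 of 30, with 10 at least 2-fold lower, 2 at least 2-fold higher and a median of -0.34. Cyp2a5, a coumarin hydroxylase, had means of 2077 and 22108, and Por, the reductase that feeds electrons to the P450 enzymes, 3002 and 14471. The exporter gene Abcb1a had 27.9, 26.2 and 37 normalized counts against 177, 356 and 213 (-2.94 ± 0.27 in limma, adjusted p = 0.000737). Cyp2b10 had 11.5, 5.83 and 84.1 against 484, 295 and 206, with 1 rapamycin library well above the other 2 (limma adjusted p = 0.0173, and up to 0.0553 with a library left out). Cyp2c55 ran the other way at 66.4, 71 and 84.1 against 17.1, 15.3 and 23.3 (1.95 ± 0.24 in limma, adjusted p = 0.00261).

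Of 31 urea cycle and amino acid genes, 6 were at least 2-fold lower and 1 higher, with a median of -0.35. Within the methionine cycle the directions split. Ahcy, which breaks down S-adenosylhomocysteine, had means of 16665 and 44112, and Mat1a, which makes S-adenosylmethionine, 23985 and 50906. Cbs, which draws homocysteine off into cysteine synthesis, was higher under rapamycin at 5070.0 and 2120.3. Prodh, a proline oxidase, had means of 951 and 2610.3, and it was below the control under rapamycin and above it under caloric restriction (by -0.60 and 0.86 on the log2 scale, with adjusted p = 0.00514 and 1.1e-08, per the authors' deposited table).

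Of 22 endoplasmic reticulum members 7 were at least 2-fold higher under rapamycin and 1 lower, with a median of 0.69. Of 17 cytosolic heat shock members none was at least 2-fold higher and 5 were at least 2-fold lower, with a median of -0.50. Each list has 4 members with recovered reads, and over these the sign of the median turned with 1 library left out. It went from 0.46 to -0.095 without rapamycin library A for the endoplasmic reticulum members. Limma called 2 of these higher with all libraries, against 5.47% of all 8611 genes. For the cytosolic members it went from -0.34 to 0.23 without caloric restriction library B, and limma called none of them. Sdf2l1, an endoplasmic reticulum stress protein, had 216, 138 and 137 normalized counts against 38.6, 39.3 and 55.8 (1.84 ± 0.24 in limma, adjusted p = 0.00293). Creld2 had 586, 307 and 426 against 169.8, 199.5 and 217 (1.12 ± 0.22 in limma, adjusted p = 0.0153). The means of Hyou1, a large chaperone of the same compartment, were 1922 and 732, and those of Calr (calreticulin) were 6342 and 2826. In control, metformin and TM5614 the means of Sdf2l1 were 253, 359 and 211, all above its rapamycin mean of 164. Those of Hyou1 were 1134, 2233 and 1692, with metformin above rapamycin and the others below it. For both genes caloric restriction had the lowest mean of the 5 groups.

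Ddit3, the 1 lower member of the endoplasmic reticulum list, and Hspa1a, 1 of the 5 lower cytosolic members, were high in caloric restriction library B. Ddit3, which codes for the stress factor CHOP, had 26.9, 37.9 and 32 under rapamycin and 40.4, 315 and 45.6 under caloric restriction, and its log2 ratio went from -2.02 to -0.40 without library B. Hspa1a had 11.5, 23.3 and 18 against 11.7, 223 and 20.3, and the ratio went from -2.20 to 0.13. For Hspa1b and Dnajb1, also among those 5, the restricted means of 1473 and 737 could not be divided among libraries, so the part of library B in their log2 ratios of -2.35 and -1.97 was not tested.

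The endoplasmic reticulum stress element is shown because it is the known binding site through which misfolded protein induces these chaperones. The element was found on either strand in the 250 bases before the start of 9 of 20 members with a RefSeq promoter (45%), against 0.13% of 27025 genes. The stretches lie at chr2:34771994-34772073 (Hspa5, plus strand), chr15:88819489-88819568 (Creld2, plus strand), chr8:84847045-84847124 (Calr, minus strand) and chr14:118937796-118937875 (Dnajc3, plus strand) of GRCm38.p6, with the element in capitals (RefSeq sequences, 5' to 3' on the strand of the gene).
Hspa5: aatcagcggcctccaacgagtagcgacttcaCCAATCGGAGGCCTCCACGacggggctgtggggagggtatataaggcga
Creld2: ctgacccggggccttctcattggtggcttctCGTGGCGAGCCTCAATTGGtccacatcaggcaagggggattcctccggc
Calr: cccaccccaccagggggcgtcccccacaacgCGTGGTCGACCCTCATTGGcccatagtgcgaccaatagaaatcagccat
Dnajc3: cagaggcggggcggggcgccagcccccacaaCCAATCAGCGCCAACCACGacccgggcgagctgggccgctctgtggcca
Their log2 ratios were 0.94, 1.17, 1.17 and -0.14. Of all 9 members with a match 7 had ratios above 0, and the other 2 were Dnajc3 and Derl3 (-0.24). Sdf2l1 and Pdia4, both at least 2-fold higher, have no match in the window. A heat shock element was found on either strand in 2 of 14 cytosolic members (14.3%, against 0.514% of all genes), Hspd1 and Hspe1, with log2 ratios of -0.50 and -0.47. A STAT site, TTCNNNGAA, which reads the same on both strands, was found in 6 of 21 acute phase genes (28.6%), in 3 of 13 cytokine-induced regulators (23.1%) and in none of the 13 male-biased or 9 female-biased genes with a promoter, against 8.13% of all genes.

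Inflammatory genes were higher under rapamycin in the group means, and several of those with recovered reads, Saa3, Tlr2, Cxcl2, Relb and Ccl2 among them, were high in library A alone. Of 17 cytokine-induced regulators 11 were at least 2-fold higher and 1 lower (median 1.75), and of 25 acute phase genes 7 were higher and 2 lower (median 0.61). Saa3, an amyloid protein of inflamed tissue on chromosome 7 (46711998 to 46719615), had 1087, 22.4 and 24 normalized counts under rapamycin and 8.08, 22.1 and 17.2 under caloric restriction. Its log2 ratio went from 4.49 to 0.53 without library A (limma adjusted p = 0.253 with all libraries). Tlr2, a receptor for bacterial lipoproteins, had 748, 14.6 and 12 against 8.08, 14.4 and 11.2, and the log2 ratio went from 4.41 to 0.23. For the chemokine gene Cxcl2 it went from 4.82 to -0.95 without library A.

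Over members with recovered reads the median went from 1.11 to -0.14 without library A for 4 cytokine-induced regulators and from 0.71 to -1.68 for 5 acute phase genes. Relb, a subunit of NF-kappa B, was at 257, 34 and 19 against 20.7, 32.6 and 25.4, and Ccl2, a chemokine for monocytes, at 93.3, 7.78 and 2 against 1.8, 7.67 and 3.04. Neither passed limma (adjusted p = 0.418 and 0.397). For Nfkbiz (means of 674 and 148), Tnfaip3 (727 and 47.4), Saa1 (4545 and 291) and Saa2 (3898 and 159) the rapamycin mean could not be divided, and the part of library A was not tested. In control, metformin and TM5614 the means of Saa1 were 696, 7622 and 6855, and those of Saa2 450, 5437 and 5777. Metformin and TM5614 thus lay above rapamycin for both. The means of Nfkbiz (82.6, 69.0 and 129) and Tnfaip3 (43.6, 22.3 and 23.6) in these groups lay below rapamycin. For Tnfaip3, Tlr2, Cxcl2 and Rnd1 the authors' deposited table holds no adjusted p for either intervention.

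Neutrophil markers went with library A. Of 8 listed, 3 passed the level filter (S100a8, S100a9 and Retnlg), and their summed level was 344, 47.6 and 51 in the rapamycin libraries and 48.5, 95 and 24.3 in the restricted ones. S100a9 alone was at 188, 22.4 and 22 against 26.9, 32.6 and 13.2. The 5 others, Ly6g, Camp, Ngp, Mmp8 and Cxcr2, have no row. The part of these cells in the inflammatory genes was not tested.

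An acute phase gene that went the other way without library A deciding it was Orm3, an orosomucoid with close copies. It had 17.3, 5.83 and 9.01 against 71, 176 and 129.8 (-3.46 ± 0.43 in limma, adjusted p = 0.00269), and its ratio without library A was -3.91.

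Interferon-induced genes were higher under rapamycin, with or without library A. Of 33 members 10 were at least 2-fold higher and none lower, 32 of 33 ratios were above 0, and the median was 0.58. Limma called 11 of the 28 with recovered reads higher and none lower, against 5.47% and 5.62% of all 8611 genes. Rapamycin was higher without overlap for 16 of the 28, against 17.3% of all 8611 genes. The median of the 28 was 0.55 with all libraries and 0.48 without rapamycin library A. Oasl1, an antiviral oligoadenylate synthetase-like protein, had 63.5, 62.2 and 55 normalized counts against 16.2, 16.3 and 17.2 (1.80 ± 0.22 in limma, adjusted p = 0.00223). Ifit1, which binds viral RNA, had 49, 45.7 and 50.04 against 18.9, 15.3 and 14.2 (1.53 ± 0.23 in limma, adjusted p = 0.00633). Psmb9, a subunit of the immunoproteasome, had 65.4, 69 and 55 against 29.6, 29.7 and 21.3 (limma adjusted p = 0.0138).

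The control means of Oasl1, Ifit1 and Psmb9, which were 62, 38.5 and 67.7, lay within 1.5-fold of rapamycin and above caloric restriction. Gbp6, an interferon-induced GTPase outside the list, was at 158, 140.0 and 120.1 against 20.7, 38.4 and 20.3 (2.41 ± 0.27 in limma, adjusted p = 0.00173). The authors' deposited table gives Gbp6 log2 fold changes of 1.04 for rapamycin (adjusted p = 0.0304) and -1.36 for caloric restriction (adjusted p = 0.000364).

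**Figure D5:**
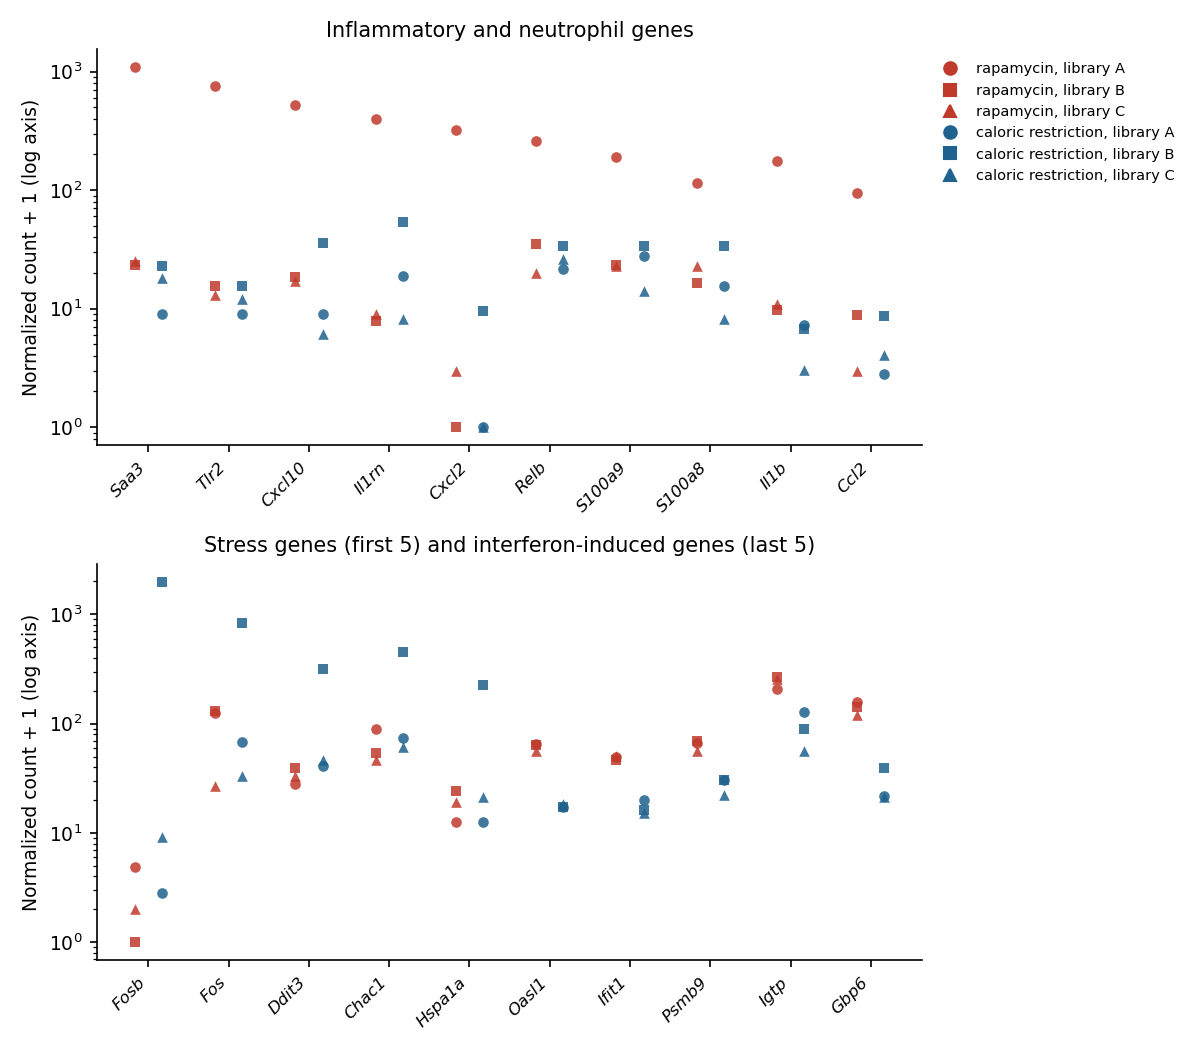
Normalized counts plus 1 (log axis) of inflammatory and neutrophil genes, above, and of stress and interferon-induced genes, below, in the 3 rapamycin (red) and 3 caloric restriction (blue) libraries, each symbol a library. In the upper panel the red circle, rapamycin library A, is the highest symbol of every gene (1087 for Saa3, 748 for Tlr2), in the first 5 genes of the lower panel the blue square, caloric restriction library B, is the highest (1959.9 for Fosb), and for Oasl1 to Gbp6 all red symbols lie above all blue ones.

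Of 27 mTOR pathway genes, the pathway that the drug blocks, 1 was at least 2-fold lower (Sesn2) and none at least 2-fold higher, with a median of -0.14. Limma called 3 lower and 1 higher of the 11 with recovered reads, against 5.62% and 5.47% of all 8611 genes. The median of the 11 went from -0.26 to -0.59 without rapamycin library A. Mtor had means of 528 and 301 (log2 ratio 0.81) and Fkbp1a, which codes for FKBP12, 496 and 348 (0.51). Tsc1, an inhibitor of the pathway, had 145, 134 and 118 against 236, 222 and 276 (-0.88 ± 0.14 in limma, adjusted p = 0.00669). Sesn2, a leucine sensor, had 39.4, 35 and 29 against 71, 109 and 56.8 (-1.13 ± 0.27 in limma, adjusted p = 0.0324, and up to 0.094 with a library left out). Among 14 insulin signalling genes 4 were at least 2-fold lower and 1 higher, against 3.77% and 3.65% of all 11201 genes. Limma called 2 of the 8 with recovered reads lower and none higher, against 5.62% and 5.47% of all 8611 genes. Sik1, 1 of the 4 lower genes, had a log2 ratio of -1.32, and of -0.65 without caloric restriction library B. Foxo3 had 141, 100.1 and 50.04 against 229.9, 432 and 231 (limma adjusted p = 0.0271, and up to 0.0762). Irs2, the 1 higher gene, had 1097, 244 and 101 against 108, 276 and 119, and its log2 ratio went from 1.52 to 0.04 without library A.

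Few genes of the translation and respiration lists reached 2-fold. Of 76 cytosolic ribosomal protein genes 1 was 2-fold lower and none higher, 68 had ratios below 0, and the median was -0.17. The exception, Rps27, had 10.8, 22.1 and 111 in the restricted libraries and did not pass limma (adjusted p = 0.15). None of 37 complex I genes reached 2-fold in either direction (median 0.03), and limma called none of the 16 recovered. Of 20 aminoacyl-tRNA synthetases 1 was at least 2-fold higher (Tars, log2 ratio 1.07) and none lower. Their median was 0.28, and 18 had ratios above 0. Limma called 4 of the 11 with recovered reads higher, against 5.47% of all 8611 genes. Cars had 406, 374 and 420.3 against 175, 217 and 222 (0.97 ± 0.12 in limma, adjusted p = 0.00293). Of 25 autophagy and lysosome genes 1 was 2-fold lower and none higher (median -0.09). The Atf4 target list (2 higher and 4 lower of 13) rested in part on caloric restriction library B, as for Chac1 at 73.6, 449 and 59.8 (log2 ratio -1.63, and -0.10 without it).

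Other list members with large ratios were few. Nampt, which makes NAD, had 489, 423 and 481 normalized counts under rapamycin and a mean of 1594 under caloric restriction, and Fgf21, a fasting hormone of the liver, 6.73, 13.6 and 32 against 20.7, 71.9 and 56.8 (limma adjusted p = 0.132). Pltp, a phospholipid transfer protein, had means of 1832 and 251, while Apoa4 had 1521 and 6123. Pgd, of the pentose phosphate path, had 607, 551 and 633 against 166, 271 and 232 (1.44 ± 0.17 in limma, adjusted p = 0.00217). The cell cycle inhibitor gene Cdkn1a had means of 1276 and 819 (log2 ratio 0.64).

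Among the largest ratios outside the lists, Cidea, a lipid droplet protein, had 40.4, 49.6 and 116 against 1.8, 5.76 and 4.06 (3.78 ± 0.48 in limma, adjusted p = 0.00275). Slc22a28, an organic anion transporter, had 71.2, 189 and 90.1 against 9.88, 0.959 and 10.1 (4.12 ± 0.67 in limma, adjusted p = 0.00838). The low end held Fosb, an AP-1 subunit, at 3.85, 0 and 1 against 1.8, 1959.9 and 8.12. Its log2 ratio went from -7.97 to -1.19 without caloric restriction library B. Both regions with numbered names among them, 4931408D14Rik (log2 ratio -4.50) and 1810053B23Rik (-3.98), are annotated as long noncoding RNAs.

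Hepatocyte markers as a list lay near equality (7 of 7 within 2-fold, median -0.21), with Alb, albumin, at means of 557685 and 858112. Pericentral markers, which mark hepatocytes around the central vein, were all lower under rapamycin. Of 10, 5 were at least 2-fold lower and all 10 ratios were below 0, with a median of -0.96. Cyp2e1, an ethanol oxidase, had means of 34567 and 84384, and Rhbg, an ammonia transporter, had 26.9, 24.3 and 20.0 against 56.6, 62.4 and 58.8 (-1.29 ± 0.22 in limma, adjusted p = 0.00915). In control, metformin and TM5614 the means of Cyp2e1 were 42534, 42215 and 44624, and those of Rhbg 34.5, 33.7 and 38.2. For both genes caloric restriction had the highest mean of the 5 groups and rapamycin the lowest. Of 10 periportal markers 1 was at least 2-fold lower, 7 had ratios below 0 and 3 above, and the median was -0.35. In whole liver, fewer cells of a type and less RNA per cell cannot be told apart.

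Of 13 Kupffer cell markers none reached 2-fold, 11 had ratios above 0, and the median was 0.65. Limma called 1 of the 12 with recovered reads higher, against 5.47% of all 8611 genes. Rapamycin was higher without overlap for 4 of the 12, against 17.3% of all 8611 genes. The summed level of the 12 was 1884, 1982 and 1151 under rapamycin and 767, 1118 and 1244 under caloric restriction, so that these sums overlapped. All 12 sinusoidal endothelial markers had ratios below 0 (median -0.51), and limma called 3 of 11 lower (5.62% of all 8611 genes). The summed levels of the 11 were 1488, 1755 and 1218 against 1838, 2251 and 2286. Bmp2 of that list had 47.1, 61.2 and 45 against 78.1, 97.9 and 138 (limma adjusted p = 0.0338). Stellate cell markers had 11 of 12 ratios below 0 (median -0.38). Of 7 T and NK cell markers 3 have a row, and none passed the level filter. Of the 4 erythroid markers 3 haemoglobin genes were at least 2-fold lower under rapamycin, with summed levels of 267, 282 and 243 against 1211, 982 and 497. Reads may have been split between the near-identical Hba-a1 (0, 33.1 and 132 against 154, 230 and 1.01) and Hba-a2 (153, 131 and 0 against 577, 311 and 294). Neither passed limma (adjusted p = 0.717 and 0.173), while the third, Beta-s, did (adjusted p = 0.0119). Alas2, the haem synthesis enzyme of red cells, went the other way with means of 727 and 152. Exocrine pancreas markers were low in both groups, with a summed level of the 3 that passed of 68.3, 72.9 and 57 against 31.4, 44.1 and 36.5.

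Some genes lay on opposite sides of the control, with both adjusted p below 0.05 per the authors' deposited table. The 8 with the largest ratios were Dbp, Map2k6, Pltp, Tmem200b, Gbp6, Paqr9, Scd1 and Me1. Both interventions were set against the same control libraries, so these calls are not independent. Map2k6, a kinase of the p38 pathway, had 18.3, 11.7 and 7.01 normalized counts under rapamycin and 109, 97.9 and 140.0 under caloric restriction (-3.20 ± 0.34 in limma, adjusted p = 0.00129). Tmem200b had 11.5, 7.78 and 6 against 44, 58.5 and 64.9 (-2.61 ± 0.31 in limma, adjusted p = 0.00217). Paqr9, a membrane receptor family member, had means of 2845 and 636. Of the 409 higher genes 71 (17.4%) had no adjusted p for rapamycin in the authors' deposited table, against 7.43% of all 11201 genes, so a missing call there is not a call of no difference.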

How the data were processed

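RNA of whole mouse liver was sequenced, and 3 rapamycin and 3 caloric restriction libraries are compared. Reads were aligned with HISAT2 2.0.5 to mm10, per the submitters' processing notes; which program counted reads, on which strand and gene models, is not given in the sources used here. Per the file headers and the values, the deposited signal is a group mean of counts divided by size factors. The authors' deposited table also holds log2 fold changes and adjusted p-values against the control. A second table has 18 columns of values per library whose names match no label, and none was used. The limma test planned on that table was therefore not run, and the call is the 2-fold one planned for that case on the group means (pseudocount 1, minimum mean 10).

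The means are printed to 10 significant digits, and whole reads of 3 libraries were sought that give each mean up to 1000. All these means had a solution. It was the single one for 100%, 93.1% and 53% of rapamycin means from 0 to 100, 100 to 300 and 300 to 1000, and for 100%, 100% and 93.1% of caloric restriction means. On 12019 simulated means 8259 were resolved, 100% of them correctly. The control means likewise fit 3 libraries, while the labels list 6 controls. The recovered reads were tested with limma 3.58.1 in R 4.3.3 (trended prior, Benjamini-Hochberg over 8611 genes), an alternative chosen after seeing the data, and tested on simulated data. The total reads of a library are not known, since large means were not divided.

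Members and the 42 gene lists were chosen with earlier results of these data known. List genes not found by symbol were matched through RefSeq synonyms (10 of 801); 770 are in the table. Named are the 15 highest and 15 lowest ratios with a higher mean of at least 50, up to 5 members of each list past 2-fold, a fixed set, and 8 genes with opposite calls against the control. Some genes that this rule picks are not reported here. Further genes in the figures or printed with a promoter were chosen after their values were seen. Names turned into dates (18) are not named. Coordinates and promoters are from RefSeq, GRCm38.p6, which is mm10; motifs were searched on both strands. The series design text gives 30 mice, but its groups sum to 18. The alternatives tried were other pseudocounts, filters, thresholds and scalings, and each library left out.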

Additional observations from a re-analysis of the deposited data

How the results depend on the processing

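The counts at 2-fold kept within 1.5 times under both pseudocounts (427 and 282 higher, 435 and 305 lower), centring, the difference of deposited log2 fold changes and no filter. Per-million scaling gave 483 higher and 351 lower and moved the median of all genes from -0.01 to 0.07. They moved with a minimum mean of 50 (264 higher, 268 lower), a threshold of 1.5-fold (1096 and 1267) and one of 4-fold (93 and 68), each of which changes what is counted. With a pseudocount of 10, 88 higher genes had caloric restriction alone 2-fold outside the other groups, and 1 lower gene had rapamycin alone.

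With each recovered library left out in turn, the limma counts ran from 138 to 333 higher and from 187 to 369 lower, with 2 libraries in an arm; without rapamycin library A they were 246 and 369, without rapamycin library C 229 and 267. The genes at 2-fold ran from 239 to 323 higher and from 283 to 386 lower. List medians over recovered members ran from -1.94 to -1.05 for the clock, from -1.68 to 0.85 for acute phase proteins, from -0.59 to -0.16 for the mTOR pathway, from -0.040 to 0.094 for the growth hormone axis, from -0.069 to 0.31 for iron handling and from -1.09 to -0.71 for pericentral markers. A minimum mean of 50 moved the medians of female-biased genes to -3.70, pericentral markers to -0.67 and exocrine pancreas markers to 0.85, and per-million scaling that of the growth hormone axis to 0.11. The sign turned for Cxcl2 (-0.95) and S100a9 (-0.12) without rapamycin library A, for Onecut1 (-0.012) without rapamycin library B and for Hspa1a (0.13) without caloric restriction library B. Over the left-out libraries the log2 ratio of Cxcl2 reached 6.77, the log2 ratio of S100a9 2.07, the log2 ratio of Onecut1 1.81 and the log2 ratio of Hspa1a -2.72. No paired analysis was possible because the recovered libraries carry no replicate number.

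Depth limits the genes with few reads, such as Cux2, and genes with means above 1000 have no value per library.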
